A study of Rattus norvegicus with 3 samples.

Results

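The 10 genes described here encode the LIF, CNTF and gp130-STAT3 signalling route: the ligands Lif and Cntf, the receptor subunits Il6st (gp130), Lifr, Cntfr and Osmr, the kinases Jak1 and Jak2, the transcription factor Stat3 and the feedback inhibitor Socs3. They were taken by symbol from the authors' table, where all 10 of 10 were found among 17337 listed genes. They were chosen by a rule that uses symbols and no measured value, although earlier results of these data were known at the time. RNA was sequenced in 3 libraries of Schwann cell precursors, the early glia of peripheral nerve, cultured in a modified Sato medium from the dorsal root ganglia of wild-type rat embryos. All 3 libraries are untreated and form 1 group, so the data give levels within these cultures and no response to a ligand. The labels give no embryonic age and do not tell if each library is a culture of its own, so the p-values below cover only differences among these libraries, possibly technical ones.

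Cytokines of the interleukin-6 family share gp130 as signalling subunit. LIF binds LIFR and recruits gp130, CNTF first binds CNTFR, which has no intracellular domain and is held to the membrane by a lipid anchor, and then engages LIFR and gp130, and oncostatin M signals through OSMR with gp130. The receptor tails carry JAK kinases, which phosphorylate STAT3, and STAT3 then enters the nucleus and switches on genes that include Socs3, whose product shuts the receptor off. In peripheral nerve CNTF is known as a product of myelinating Schwann cells and LIF as a factor that rises after injury.

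Levels are given as TPM, a measure in which each gene's counts are divided by its length and every library is brought to the same total, with the SD over the libraries (n = 3). Total counts were 14139074 to 15309526 per library. All 12 Schwann cell precursor markers used were above 1 TPM, including Sox10 and Erbb3, with summed levels of 4787 to 4844 TPM per library. They ran from Fabp7 at 3.32 ± 1.31 TPM, on 42 counts, to Ednrb at 1414 ± 16.7 TPM. Fabp7 was also used as a satellite glia marker. All 10 fibroblast markers were above 1 TPM too, with sums of 8605 to 8802 TPM, and so were all 6 mural cell markers, with sums of 950 to 1002 TPM, all 9 measured sensory neuron markers, with sums of 758 to 781 TPM, and all 5 satellite glia markers, with sums of 659 to 671 TPM. Of 9 macrophage markers 5 were above and 3 below 1 TPM, with sums of 31.3 to 35.5 TPM. Lyz2 was the highest at 9.85 ± 0.463 TPM and Ptprc, a gene of leukocytes in general, was at 0.316 ± 0.0756 TPM. Of 6 endothelial markers 3 were above and 2 below, with sums of 34.0 to 36.4 TPM. Cdh5 was the highest of them at 16.6 ± 1.03 TPM, while Pecam1 was at 0.0693 ± 0.0695 TPM and Cldn5 had no count. Over all genes tested 78.4% were above and 17.8% below 1 TPM, so passing this level does not by itself tell which cells were present. Which cells made the RNA of each gene was not tested, and in such bulk libraries fewer cells of a type cannot be told apart from less RNA per cell.

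Every one of the 10 genes was expressed. By limma's moderated one-sample test of log2(TPM + 1) against 1 TPM, with Benjamini-Hochberg adjustment over 13345 genes, 10 of 10 were above 1 TPM, beside 78.4% of all genes tested, so passing this level does not set the 10 apart. The largest adjusted p among them was 6.1e-08 by limma, for Cntf, which was above 1 TPM in 3 of 3 libraries. Their mean levels ran from 6.53 to 238 TPM with a median of 53.3 TPM, where the median gene with a count stood at 21.7 TPM. The order from high to low was Stat3, Il6st, Jak1, Socs3, Osmr, Cntfr, Lif, Jak2, Lifr and Cntf, and each gene exceeded the next in 3 of 3 libraries. Only Osmr and Cntfr were neighbours whose log2 ratio, 0.15 ± 0.15 (SD, n = 3), was under 2 SD. Some of these orders turn around without division by gene length. By counts, Il6st had 34137 against 22279 for Stat3, Osmr 3437 against 1523 for Socs3 and Jak2 2494 against 507 for Lif.

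**Figure D1:**
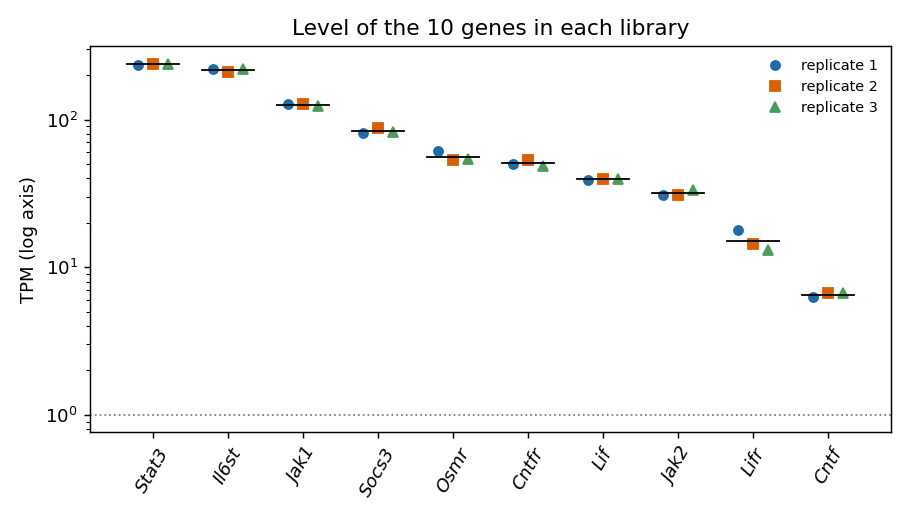
TPM on a log axis for each of the 10 genes, ordered by mean, with 1 point per library, a bar at the mean and a dotted line at 1 TPM. Stat3 and Il6st sit above 200 TPM, and Cntf, the lowest at 6.53 TPM, is above the dotted line in each library.

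Each of the 10 genes is listed on 1 chromosome in the authors' annotation of the rn6 build. No exon of any of them overlapped an exon of another listed gene. The receptor genes Il6st (NCBI gene 25205, chromosome 2, 44290075 to 44319427, plus strand, 15 exons), Osmr (310132, chromosome 2, 56110777 to 56151531, minus strand, 17 exons) and Lifr (81680, chromosome 2, 56436726 to 56487589, plus strand, 20 exons) share a chromosome, while Cntfr (313173) lies on chromosome 5 from 58041631 to 58070125 with 9 exons. Lif (60584) is listed on chromosome 14 from 84496470 to 84499244 with 3 exons, and Cntf (25707) on chromosome 1 from 229599009 to 229601032 with 2. The summed exon lengths run from 609 bases for Lif and 863 for Socs3, which is listed with 1 exon, to 7454 bases for Il6st. Levels of different genes rest on these lengths, and the effect of untranslated ends that a listed model may lack was not tested.

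Of the ligands, Lif was the clearly expressed one and Cntf was low. Lif, the leukemia inhibitory factor, was at 39.1, 39.6 and 39.4 TPM in replicates 1, 2 and 3, a mean of 39.4 ± 0.261 TPM at percentile 63.87 of genes with a count. Its 3 libraries were nearly equal, on 507 counts in all and a 95% exact Poisson interval for counting error of 36.0 to 43.0 TPM. Cntf, the ciliary neurotrophic factor, was at 6.31, 6.65 and 6.64 TPM, a mean of 6.53 ± 0.193 TPM at percentile 32.54. It rests on 151 counts, with an exact Poisson interval of 5.53 to 7.66 TPM. Lif exceeded Cntf by 6.03 ± 0.148-fold and did so in 3 of 3 libraries.

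Markers of the myelinating stage, the stage for which CNTF is known, were uneven beside this low Cntf level. Of 6 such markers 5 were above 1 TPM, beside 78.4% of all genes tested. The myelin protein gene Pmp22 was at 628 ± 18.9 and the transcription factor Egr2 at 52.3 ± 2.45 TPM. Pllp was at 90.55 ± 3.70, Prx at 26.6 ± 1.22 and Mbp at 18.7 ± 1.08 TPM. Mag, a myelin adhesion gene, was at 0.21 ± 0.0878 TPM and below 1. The zinc finger gene Zfp91 lies 1466 bases from Cntf on the same strand and was at 71.6 ± 0.0854 TPM. Whether transcripts running from Zfp91 into Cntf add to the Cntf count was not tested.

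Of the other ligands of the family that are reported, Clcf1 had the highest level. Of 7 such ligands measured, 4 were above 1 TPM and 2 below, beside 78.4% above and 17.8% below over all genes tested. Clcf1, the cytokine that acts on CNTFR in place of CNTF, was at 41.3, 38.8 and 39.6 TPM, a mean of 39.9 ± 1.28 TPM. Clcf1 and Lif could not be ordered, since their ratio was 1.06, 0.98 and 1.01 in the 3 libraries.

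The remaining ligands were low. Ctf1, cardiotrophin, was at 5.36 ± 0.554, Il11 at 4.17 ± 0.451 and Ebi3 at 1.89 ± 0.452 TPM, all above 1 TPM. Osm, the ligand of OSMR made by macrophages and other blood cells, was below 1 TPM at 0.376, 0.202 and 0.202 TPM, on 2, 1 and 1 counts. Il6, the founding cytokine of the family, was at 0.389, 0.417 and 0.973 TPM and was called below 1 TPM with an adjusted p of 0.018 by limma. That call was lost without replicate 1 (adjusted p = 0.275 by limma), without replicate 2 (0.211) and with genes without a count also tested (0.108). Ctf2 had no count, which allows up to 0.66 to 0.709 TPM per library at 3 counts.

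**Figure D2:**
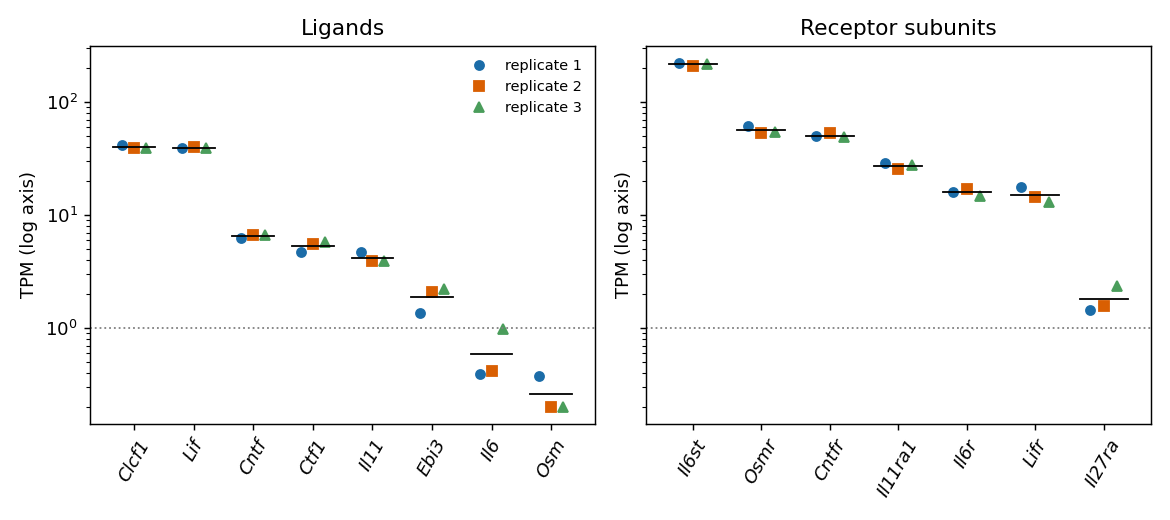
TPM on a log axis for ligands (left) and receptor subunits (right) of the gp130 family, with 1 point per library, a bar at the mean and a dotted line at 1 TPM. Clcf1 and Lif at 39.9 and 39.4 TPM lead the left panel and Il6st at 216 TPM the right, while Il6 and Osm have means below the dotted line.

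The receptor subunits were unequal, with RNA for gp130 the most abundant and that for LIFR the scarcest of the 4. Il6st, encoding gp130, was at 221, 209 and 219 TPM, a mean of 216 ± 6.33 TPM at percentile 93.4. Osmr, the signalling subunit for oncostatin M, was at 61.3, 53.0 and 54.1 TPM, a mean of 56.1 ± 4.53 TPM. Cntfr, the binding subunit for CNTF and CLCF1, was at 49.8, 52.9 and 48.6 TPM, a mean of 50.5 ± 2.23 TPM. None of the ranges of these genes overlapped, though the lowest Osmr library and the highest Cntfr library were nearly equal.

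Lifr, which LIF, CNTF and CLCF1 all need to signal, was at 17.8, 14.4 and 13.1 TPM, a mean of 15.1 ± 2.44 TPM. It stood at percentile 43.11 of genes with a count, below the median gene in TPM. That side of the median was not kept by counts scaled to library totals alone (percentile 51.5) or among all listed genes (56.2). Il6st exceeded Lifr 12.4-, 14.5- and 16.7-fold in the 3 libraries, a mean of 14.5 ± 2.14-fold. It exceeded Osmr 3.87 ± 0.233-fold and Cntfr 4.30 ± 0.302-fold. Osmr in turn exceeded Lifr 3.75 ± 0.343-fold, and Cntfr exceeded it 3.39 ± 0.520-fold, in 3 of 3 libraries each. By counts alone Osmr exceeded Lifr 3.18-fold and Cntfr exceeded Lifr 1.33-fold. The size of the Cntfr ratio thus rests largely on the listed lengths of 1332 bases for Cntfr and 3407 for Lifr. These ratios were not tested: the exact sign-flip permutation test of a single ratio cannot go below p = 0.25 with 3 libraries.

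Of the 4 other receptors of the family, 3 were above 1 TPM and 1 below, near the 78.4% and 17.8% over all genes tested. Il11ra1, the binding subunit for interleukin-11, was at 27.3 ± 1.86 TPM and Il6r, that for interleukin-6, at 15.8 ± 1.14 TPM. Il6r and Lifr did not differ beyond their spread, and their ranges overlapped. Il27ra was at 1.80 ± 0.503 and Il31ra at 0.0597 ± 0.103 TPM. In 3 of 3 libraries Il6r was higher than Il6, Il11ra1 than Il11 and Osmr than Osm. Lif, by contrast, was higher than Lifr in each library, and Ebi3 and Il27ra had overlapping ranges. By counts Lif was lower than Lifr, 507 against 1094, so their order rests on the listed lengths of 609 and 3407 bases.

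Among the kinases Jak1 dominated. Jak1, the main kinase of gp130 receptors, was at 128, 127 and 123 TPM, a mean of 126 ± 2.47 TPM at percentile 87.73. Jak2 was at 31.0, 30.7 and 33.1 TPM, a mean of 31.6 ± 1.32 TPM, and Jak1 exceeded it 3.99 ± 0.238-fold. Tyk2, also used by gp130, followed at 21.1 ± 1.21 TPM and Jak3, the kinase of lymphocyte cytokine receptors, at 14.8 ± 0.597 TPM. The order Jak1, Jak2, Tyk2, Jak3 held in 3 of 3 libraries without overlap of their ranges.

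Stat3 was the highest of the 6 STAT genes compared and of the 10 genes described. It was at 235, 240 and 239 TPM, a mean of 238 ± 2.60 TPM at percentile 94.18. Stat6, the factor of interleukin-4 receptors, followed at 123, 115 and 113 TPM, and Stat3 exceeded it 2.03 ± 0.115-fold. Stat2, a factor of interferon receptors, was at 35.9 ± 0.821 TPM. Stat5b was at 20.7 ± 0.371 and Stat5a at 7.24 ± 0.575 TPM, and Stat4, a lymphocyte factor, was below 1 TPM at 0.0467 ± 0.0455. Of the 5 others, 4 were above and 1 below 1 TPM, near the shares over all genes tested (78.4% and 17.8%). Stat3 exceeded Stat2 6.63 ± 0.16-fold and Stat5b 11.5 ± 0.211-fold. Although Stat3 was higher than Il6st in TPM, Il6st had the more counts, 34137 against 22279, so this order rests on the listed lengths of 7454 and 4430 bases.

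Socs3 was well expressed and yet not the highest of its family. Socs3, the inhibitor that binds gp130 and JAKs, was at 80.9, 87.6 and 82.0 TPM, a mean of 83.5 ± 3.60 TPM at percentile 81.09. Socs2, which restrains growth hormone signalling, was at 204, 200 and 182 TPM, a mean of 195 ± 11.5 TPM, and exceeded Socs3 2.34 ± 0.157-fold. Socs5 was at 166, 160 and 164 TPM, a mean of 163 ± 3.21 TPM, and exceeded Socs3 1.96 ± 0.12-fold. The difference between Socs5 and Socs3 depends on the listed lengths, and by counts alone it was 9.60-fold. Socs5 also had more counts than Socs2, 14606 against 3748, so their order in TPM rests on the listed lengths.

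The lower SOCS genes lay between 6.94 and 22.3 TPM. Socs6 at 22.3 ± 0.915 and Socs4 at 21.6 ± 1.25 TPM could not be ordered, since Socs6 was higher in only 1 of 3 libraries. Cish was at 10.5 ± 0.304 TPM and Socs1, an inhibitor induced by interferon, at 6.94 ± 1.72 TPM, with 5.59, 8.88 and 6.37 TPM in the libraries. The log2 ratio of Cish to Socs1 was 0.62 ± 0.39 (SD, n = 3), under 2 SD. All 6 measured SOCS genes beside Socs3 were above 1 TPM, as were 78.4% of all genes tested. Socs3 exceeded Socs6 3.74 ± 0.0598-fold in 3 of 3 libraries, though by counts alone the ratio of Socs6 to Socs3 was 0.912.

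**Figure D3:**
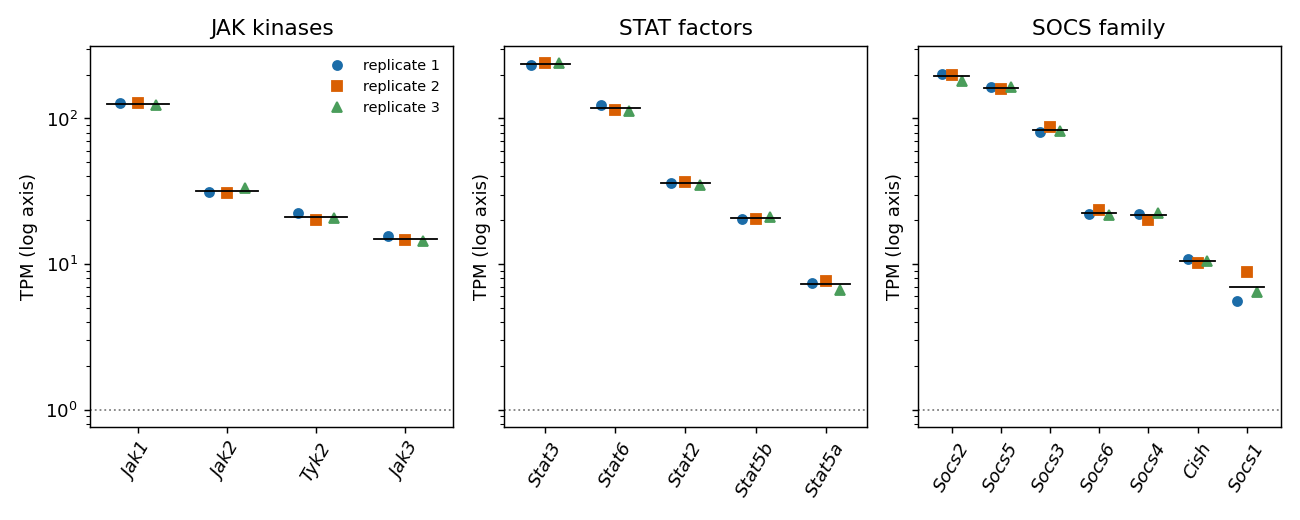
TPM on a log axis for JAK, STAT and SOCS genes, ordered by mean within each panel, with 1 point per library, a bar at the mean and a dotted line at 1 TPM. Jak1, Stat3 and Socs2 lead their panels at 126, 238 and 195 TPM, Socs3 is the third of its family, and Stat4, with a library at 0, is not drawn.

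Other brakes and the side branch of the receptor were measured as well. Of 9 genes of PIAS proteins and phosphatases, 7 were above and 2 below 1 TPM, where 78.4% of all genes tested were above and 17.8% below. The list was led by Pias2 at 61.8 ± 2.54, the phosphatase genes Ptpn2 at 57.3 ± 2.34 and Ptpn1 at 54.1 ± 2.44, and Pias4 at 36.5 ± 2.99 TPM. Ptprt was at 0.62 ± 0.105 TPM, and the leukocyte phosphatase gene Ptprc, given above, was the other one below. All 6 genes of the SHP2 branch, which links gp130 to RAS and MAP kinases, were above 1 TPM. The highest were the adaptor Shc1 at 171 ± 1.98, Ptpn11, encoding SHP2 itself, at 114 ± 1.81, Gab1 at 106 ± 2.77 and Grb2 at 63.2 ± 1.02 TPM.

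Known STAT3 target genes were expressed at a wide range of levels. Of 25 such genes 23 were above and 2 below 1 TPM, beside 78.4% and 17.8% of all genes tested, and their median was 41.6 TPM. The highest were the protease inhibitor Timp1 at 591 ± 9.83, the cyclin Ccnd1 at 498 ± 2.60, the survival gene Mcl1 at 210 ± 8.44 and the glial filament gene Gfap at 165 ± 4.36 TPM. The acute phase genes Lcn2 at 0.269 ± 0.0902 and Fgg at 0.181 ± 0.15 TPM were below. All of these genes are controlled by other factors too, and no library here had STAT3 activated or blocked, so the levels do not measure STAT3 activity.

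**Figure D4:**
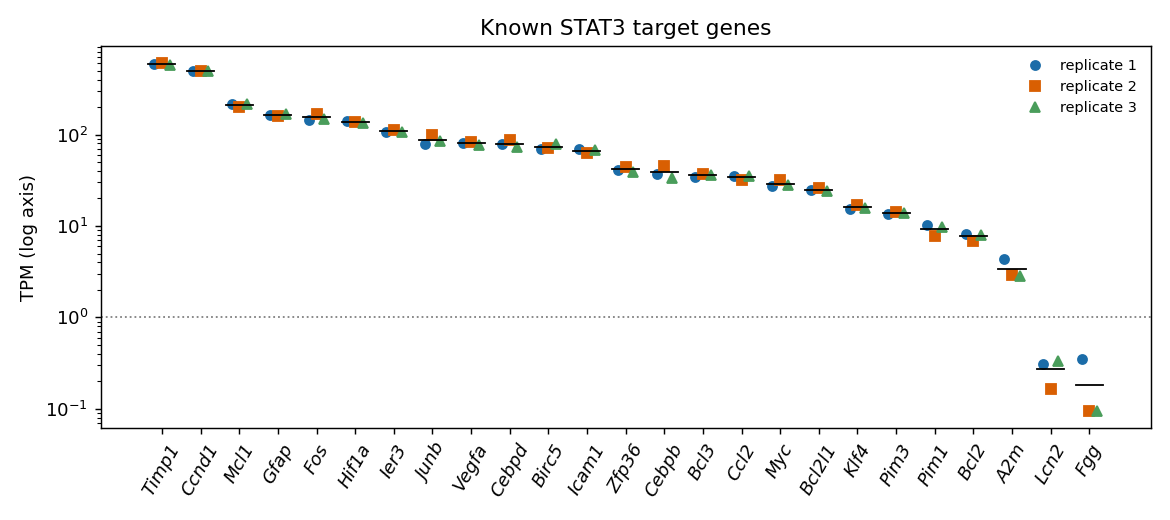
TPM on a log axis for 25 known STAT3 target genes, ordered by mean, with 1 point per library, a bar at the mean and a dotted line at 1 TPM. Timp1 and Ccnd1 lead at 591 and 498 TPM, and Lcn2 and Fgg lie below the dotted line.

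Promoter sequence was examined for the motif TTCNNNGAA, the core to which STAT dimers bind, which reads the same on both strands. RefSeq promoter windows of the GRCr8 build, from 250 bases before to 50 after a gene's start, were found for 7 of the 10 genes (not for Lif, Cntfr and Jak1). None of those 7 windows held the motif, which 8.87% of 33469 windows in the table hold, and no match says only that these letters are not in that window. Of the 4 SOCS genes beside Socs3 that have a window, 2 held the motif, Cish and Socs1. In the target list it was found in 4 of 18. Icam1, Klf4 and Bcl2l1 hold a match that lies wholly before the start, and in the remaining gene the match reaches past the start. Among other receptors that signal through JAK kinases it was found in 3 of 14. It was in 0 of 6 ligands and 0 of 3 other receptors of the gp130 family and in 0 of 5 STAT factors. Of the PIAS proteins and phosphatases 0 of 9 held it, and of the SHP2 branch 0 of 5. These list counts are of genes with a match in any window, whereas 8.87% is a share of windows. A match is a description and not a site, and the expression data do not test it.

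The sequences below show matches in genes of the SOCS family, where Cish carries the motif 4 times, and of the target list. Capitals mark the motif, and each line reads 5′ to 3′ on the gene's strand. The Cish stretch lies at chr8:116850723-116850863 (GRCr8, plus strand) and the Socs1 stretch at chr10:5389368-5389396 (plus strand). The Icam1 stretch lies at chr8:27829728-27829756 (plus strand) and the Klf4 stretch at chr5:75078700-75078728 (minus strand).
Cish: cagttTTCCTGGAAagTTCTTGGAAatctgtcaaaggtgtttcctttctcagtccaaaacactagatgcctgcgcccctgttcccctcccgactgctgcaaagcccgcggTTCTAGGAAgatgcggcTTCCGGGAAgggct
Socs1: agaagtcccaTTCAGGGAAggtgcgaggc
Icam1: ggcgcgaggtTTCCGGGAAagtggcccca
Klf4: tttacaacttTTCTAAGAAtttttgtata

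Of these genes Icam1, an adhesion molecule, was at 66.4 ± 3.04 TPM and Klf4, a transcription factor, at 16.0 ± 0.866 TPM. The levels of Cish and Socs1 are given above, and whether the number of matches bears on level was not tested.

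The libraries were close for most of the 10 genes, and 3 of the 4 receptor genes had the widest spread for their counts. The SD over the libraries was set against the SD that counting error alone gives. This ratio was 3.12 for Il6st, 3.08 for Lifr and 2.73 for Osmr, and at most 1.21 for the other 7 genes, Cntfr among them, where the median of 10436 genes with a mean of 20 or more counts was 1.08. Of those 10436 genes, 2.16% had a ratio above that of Lifr. It was 0.0862 for Lif and 0.209 for Cntf, so these ligands varied by less than counting error alone gives on average.

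All 3 of the variable receptor genes were highest in replicate 1, in which 42.1% of the 10436 genes were highest. The Lifr level in replicate 1 was 1.36-fold that in replicate 3, whereas the median ratio of the highest to the lowest library was 1.09. The ratio of Il6st to Lifr therefore moved between libraries more than that of Il6st to Osmr. In absolute terms the variation of Il6st was small, its highest library being 1.06-fold its lowest. In replicates 1, 2 and 3 the summed mural markers were at 1002, 961 and 950 TPM, the macrophage markers at 35.5, 31.5 and 31.3 TPM and the satellite glia markers at 671, 668 and 659 TPM, all highest in replicate 1. The endothelial markers were at 36.4, 35.4 and 34.0 TPM, in the same order. Gene by gene, 4 of 6 mural, 4 of 9 macrophage and 2 of 5 satellite glia markers were highest in replicate 1. So was 1 of the 5 endothelial markers with a count, and so were 6 of 12 precursor and 4 of 9 neuron markers. Fibroblast markers summed to 8653, 8605 and 8802 TPM, with 6 of 10 highest in replicate 1, precursor markers to 4809, 4844 and 4787 TPM, and neuron markers to 758, 781 and 762 TPM. The part of cell composition and handling in these differences was not tested.

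**Figure D5:**
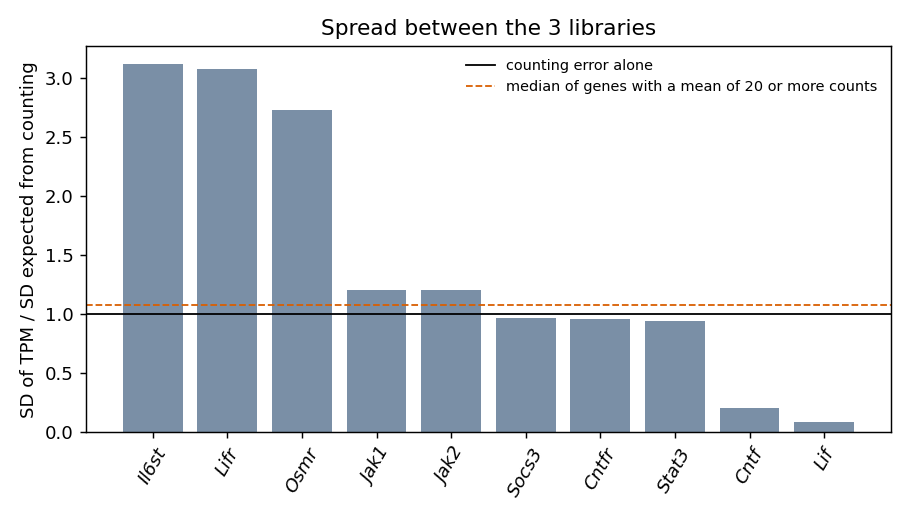
Bars give the SD of TPM over the 3 libraries divided by the SD expected from counting error, with a solid line at 1 and a dashed line at the median of genes with a mean of 20 or more counts, 1.08. Il6st, Lifr and Osmr stand at 2.73 to 3.12, and the other 7 genes at 1.21 or less.

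Socs3 was highest in replicate 2. Of the 25 target genes 14 were highest in that replicate, where 30.7% of the 10436 genes were. The other target genes went another way, with 6 highest in replicate 1 and 5 in replicate 3. Junb, an AP-1 factor, was at 79.3, 99.5 and 85.9 TPM, Fos at 146, 169 and 149 TPM, Cebpb at 37.2, 45.4 and 33.5 TPM and Cebpd at 78.1, 88.1 and 73.6 TPM, and these 4 were chosen for mention after their values were seen. Socs3 itself varied by no more than counting error gives, with a ratio of 0.97.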

How the data were processed

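The members and lists were chosen with earlier results of these data known. The authors' deposited table holds raw counts per gene and TPM for the 3 libraries, made with a stranded poly(A) kit per the labels' protocols. The submitters' processing notes name STAR 2.5.2b, Subread and rn6. Annotation, strand setting and the treatment of multi-mapped reads were not given in sources used here. Recomputing TPM from counts and lengths gave values within 0.0005 TPM of those deposited. Left out were 2 rows without a gene name and 9 columns of other per-library values.

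In R 4.3.3, limma 3.58.1 compared log2(TPM + 1) of each gene having a count with the value at 1 TPM (trend, two-sided, threshold 0.05 after adjustment). Low genes look closer to that level than they are, because of the pseudocount of 1. In simulated data with 13147 genes, 50 of 50 genes were called above at 2 TPM, 50 of 50 below at 0.5 TPM, and 4 of 50 either way at 1 TPM. Genes set to these levels were all longer than Lif and Socs3 and had the same small spread beyond counting error. The rates therefore do not carry over to short genes or to genes that vary more. Ratios are TPM over TPM within a library, untested. Intervals and floors (3 counts) leave out all but counting error, as there are no molecular identifiers. Named genes are the 10, the JAK, STAT and SOCS genes, and in each list the 4 highest and those under 1 TPM in every library. Some genes of the lists are not reported here and were left out of the list counts. No gene was sought for a pattern over conditions, since 1 group holds none. Outside the naming rule are the cell type markers, Zfp91, further ligands and receptors, and genes with a motif match. Junb, Fos, Cebpb and Cebpd are outside it too. They were named after their values were seen, and like Socs3 they were highest in replicate 2. edgeR 4.0.16 gave the TMM factors of 1 alternative.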

Additional observations from a re-analysis of the deposited data

How the results depend on the processing

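All 10 genes were above the tested level in each of the 12 alternatives (levels of 0.5 and 2 TPM, pseudocounts of 0.1 and 0.5, 2 other filters, 2 other variance priors, TMM scaling and leaving out each replicate). The number of all genes below 1 TPM was 2374, against 6235 with no filter and 1372 when genes averaging under 0.1 TPM were dropped. With the level set to 0.5 TPM, Il6 lay on the other side, at a log2 difference of 0.067 (adjusted p = 0.568 by limma). Leaving out each replicate gave a ratio of Il6st to Lifr of 13.5 to 15.6, and of Socs5 to Socs3 of 1.91 to 2.02. Without division by gene length the ratio of Il6st was 31.8 to Lifr, 24.1 to Cntfr and 9.98 to Osmr, that of Jak1 to Jak2 was 4.59, that of Stat3 to Stat6 was 3.42 and that of Socs5 to Socs3 was 9.60. That of Il6st to Stat3 turned from 0.91 to 1.53. These shifts follow from the listed lengths. With TMM factors the spread of Stat3 over counting error was 1.53 in place of 0.941. By counts scaled to library totals alone, Lif lay at percentile 38.6, Lifr at 51.5 and Socs3 at 58.6. No paired analysis was possible because all libraries form 1 group.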

Other observations

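Receptors of other cytokines that use the same kinases were also measured. Of 14 such genes measured, 8 were above and 5 below 1 TPM, beside 78.4% above and 17.8% below over all genes tested, and 1 had no count. The interferon receptor genes led, with Ifngr1 at 105 ± 4.68, Ifnar1 at 80.4 ± 1.69 and Ifngr2 at 46.6 ± 0.636 TPM, followed by Il10rb, a shared subunit of interleukin-10 type receptors, at 41.8 ± 0.616 TPM. All 4 stood above Lifr, the scarcest of the 4 receptor genes described above at 15.1 ± 2.44 TPM. Ghr, the growth hormone receptor gene, was at 18.3 ± 2.16, Il4r at 11.1 ± 0.271, Il13ra1 at 6.66 ± 0.0879 and Lepr, the leptin receptor gene, at 3.02 ± 0.153 TPM, all above 1 TPM. The lowest were Epor at 0.692 ± 0.179, Il10ra at 0.182 ± 0.165, Csf2rb at 0.145 ± 0.0921, Csf3r at 0.14 ± 0.123 and Prlr at 0.0973 ± 0.0803 TPM, and Il2rg, the shared subunit of lymphocyte cytokine receptors, had no count.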
